A study of Mus musculus with 18 samples.

Results

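The 9 genes described here code for enzymes and partners that shorten the poly(A) tail of mRNAs, and they were taken from the 15871 genes that had a value in at least 1 library. They are Cnot1, Cnot2 and Cnot3, which build the frame of the CCR4-NOT complex, Cnot6, Cnot6l, Cnot7 and Cnot8, which are its catalytic subunits, Pan3, the partner of the deadenylase Pan2, and Parn, the poly(A)-specific ribonuclease. The genes were listed by name and not by a rule on measured values, though earlier results of these data were known. All 9 passed the filter on low values (an FPKM of 1 or more in 3 or more of the libraries), as did 14425 genes in all.

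Removal of the poly(A) tail is the first and usually the slowest step in the decay of an mRNA, and it also silences mRNAs that are stored rather than destroyed. Microribonucleoprotein complexes and many RNA-binding proteins act on their targets by bringing in CCR4-NOT, whose scaffold Cnot1 holds the NOT module (Cnot2 and Cnot3) and one nuclease of each of 2 families, an EEP-type enzyme (Cnot6 or Cnot6l) and a DEDD-type enzyme (Cnot7 or Cnot8). In the testis, transcription stops during spermiogenesis, so that mRNAs are held in ribonucleoprotein particles (RNPs) and are translated later on polysomes. Male mice without Cnot7 are infertile.

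RNA was measured in 18 libraries, 3 for each of 6 groups, from the pachytene spermatocytes and the round and elongating spermatids of adult wild-type C57BL/6 mice. Cells were purified by sedimentation (STA-PUT) with cycloheximide in the buffers per the study's methods, and a sucrose gradient gave the RNP fraction and the polysome fraction of each cell type. By cell morphology the elongating preparation was the least pure of the cell types. Nothing in the labels says that libraries of 1 group came from separate purifications, so p-values measure the spread between these libraries, which may be technical.

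A value is in FPKM (fragments per kilobase of transcript, scaled to the mapped fragments of the library), as assembled by Cufflinks in each library. Summed FPKM is the total over the assembled transcripts of a gene. Where a gene was assembled in several pieces, each piece adds its full FPKM to this sum, so a length-weighted FPKM was set beside it, in which each transcript counts by its length and the total is divided by the length of the longest annotated coding transcript. Another measure, the median exon FPKM, is the median over the exons of a gene of the FPKM of all transcripts that hold the exon. Differences are on the log2(FPKM + 1) scale, which understates the change of low genes. "Rose" and "fell" are used of adjusted p values under 0.05 from limma with Benjamini-Hochberg adjustment over all genes tested.

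The labelled cell types were checked against marker genes. The summed FPKM of 10 elongating spermatid markers ran from 8034 to 32874 in the 6 elongating libraries and from 62.4 to 5075 in the other 12. Of these markers Prm3 was at 0 in all 6 elongating libraries and Prm1 in 2 of them. The libraries numbered 2 of pachytene spermatocytes and round spermatids, in both fractions, stood at 62.4 to 125, below all others. The other 2 germ cell lists did not separate the labels. Sums of 10 pachytene markers were 4274 to 5408 in pachytene polysomes and 3826 to 4634 in elongating polysomes. Sums of 10 round spermatid markers were 1136 to 1421 in round polysomes and 1413 to 2039 in elongating polysomes. The median log2 value of the round markers was lowest in round polysome 2 (3.16) and round RNP 2 (2.39). The 14 Sertoli cell markers summed to 29.1 to 56.1 FPKM in elongating libraries and to over 1000 FPKM in 5 libraries, which are pachytene RNP 2, pachytene polysome 2 and 3, round RNP 2 and round polysome 2. Of these markers, Rhox5 was at 0 in all 18 libraries, and Sox9, Amh and Fshr were above 0 in each of the 5. In RNA from whole cell preparations, fewer cells of a type and less RNA per cell cannot be told apart. Calls of the members that rest on these 5 libraries are given with and without them. The ratios of members are not given without all 5, and the partner genes are given with all 18 libraries only. Depth is not known in reads; the ratio of Cufflinks coverage to FPKM, which rises with depth, ran from 1.20 in pachytene RNP 3 to 2.26 in elongating RNP 3.

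4 places in the coding part of Cnot1 and Cnot6 were assembled with 2 alternative splice sites, and their sequences are shown because they are the parts of these mRNAs in which the assembled forms differ. Each line gives 30 bases of the mm9 genome on the minus strand, 5′ to 3′, with the bases that belong only to the longer form in capitals.
Cnot1 intron 39, 5′ splice site, chr8:98256967-98256996: gacagGTAGAGCTTTTGGAAAGAAAGgtgc
Cnot1 intron 18, 3′ splice site, chr8:98278996-98279025: ctcattctctctagTAGgtggtcttggcac
Cnot1 intron 19, 5′ splice site, chr8:98278858-98278887: ccagcagaGTAAGATGAAACCTTgtaagtg
Cnot6 intron 5, 5′ splice site, chr11:49498743-49498772: tttgtcagGTACTGCAAAAAGAAgtaagtg
Both forms of every site leave an intron that starts with gt and ends with ag, and the sizes of 21, 3, 15 and 15 bases are all multiples of 3.

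The longer form at Cnot1 intron 39, which the annotation (GENCODE vM1) lacks, was assembled beside the shorter, annotated form in all 18 libraries. It held 28.6% to 64.9% of the FPKM of the transcripts that span the site, with a median of 50.8%. The 9 polysome libraries ran from 28.6% to 64.9% and the 9 RNP libraries from 29.3% to 56.8%, so the fractions overlapped. At intron 18 the annotated form keeps the 3 bases shown, and a shorter form without them was assembled in 15 libraries. At intron 19 the longer form was assembled in 16 libraries and the shorter form in 9, and both are annotated. For Cnot6 intron 5, where both forms are annotated too, the longer form was found in 14 libraries and held 36.8% of the FPKM at the median. Several of the Cnot1 shares are equal within a library because they come from the same few assembled transcripts. These sites were picked after the assemblies were seen, and no test was made of them.

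In Cnot2 and Pan3 the assembled forms differed by whole exons. An annotated exon of 58 bases in intron 2 of Cnot2 (chr10:115974277-115974334) was assembled in 12 libraries and skipped in 16. Pan3 had 2 exons that are not in the annotation, 118 bases in intron 5 (chr5:148314661-148314778) in 15 libraries and 72 bases in intron 17 (chr5:148356137-148356208) in 10 libraries. All 3 are preceded by ag and followed by gt.

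Cnot1 stood far above the other members. Its median exon FPKM was 130 ± 82.9 (SD over 18 libraries), and it was the highest of the 9 genes in 18 of 18 libraries. Cnot7 followed at 22.5 ± 17.4, Cnot2 at 21.6 ± 11.4 and Pan3 at 21.2 ± 7.50, and these neighbours did not differ beyond their spread, since Cnot7 was above Cnot2 in 7 libraries and Cnot2 above Pan3 in 8. Lower levels were those of Cnot6 (10.5 ± 5.85), Cnot8 (9.19 ± 9.65), Cnot6l (6.56 ± 5.18), Parn (5.09 ± 4.18) and Cnot3 (3.61 ± 3.36). Pan3 was above Cnot6 in 17 libraries, while Cnot6 was above Cnot8 in 10 and Cnot8 above Cnot6l in 11. On the length-weighted scale Cnot1 was again the highest in 18 libraries, with a mean of 126, and Cnot6l the lowest, with 3.26. That scale divides by a transcript that includes the longest annotated 3′ UTR, which is 3690 bases in Cnot6 and 6847 bases in Cnot6l, so it lowers both relative to the other genes.

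The genes lie on 6 chromosomes of mm9. Cnot1 is at chr8:98243351-98331366 on the minus strand and has up to 49 exons, and Cnot7 is on the same chromosome at chr8:41577894-41601201, minus strand, with 7. Cnot6 (chr11:49485005-49526225, minus) and Cnot8 (chr11:57917655-57932096, plus) share chromosome 11. Cnot6l (chr5:96499352-96593190, minus) and Pan3 (chr5:148242156-148360077, plus) are on chromosome 5. Cnot2 is at chr10:115922217-116018567 (minus), Cnot3 at chr7:3596892-3612710 (plus) and Parn at chr16:13538057-13668263 (minus).

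The first question was whether the mRNAs of the deadenylases are in RNPs or on polysomes. Averaged over the 3 cell types, 5 of the 9 genes were higher in polysomes than in RNPs in summed FPKM and none was lower, against 30.9% of all genes called in either direction. The members' median difference was 1.22 on the log2 scale, and that of all genes tested was 0.77. The genes were the scaffold Cnot1, the NOT subunit Cnot2 and the nucleases Cnot6, Cnot7 and Cnot8. In the plot of averaged differences these 5 genes lie above the dashed line of all genes on both unscaled measures.

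**Figure D1:**
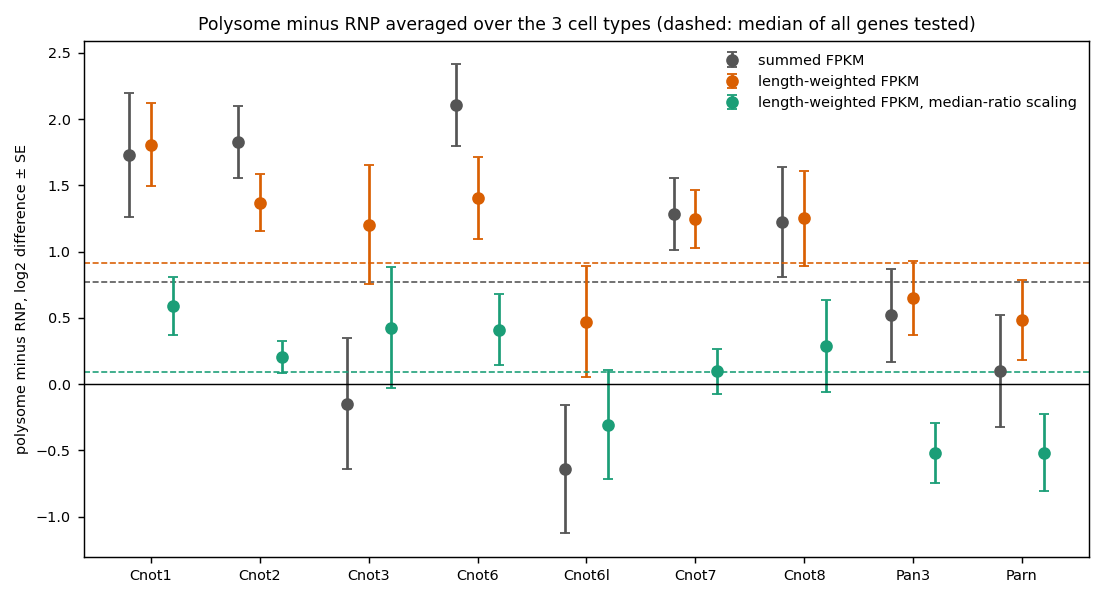
Difference between polysomes and RNPs averaged over the 3 cell types (y axis, log2 difference ± SE from limma over 18 libraries) for the 9 genes (x axis), in summed FPKM (grey), length-weighted FPKM (orange) and length-weighted FPKM after median-ratio scaling of the libraries (green). Dashed lines mark the median of all genes tested, at 0.77, 0.92 and 0.09, and the green values, from -0.52 to 0.59, lie around 0.

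Cnot6, an EEP-type nuclease of CCR4-NOT, had the largest difference of the 9 genes in summed FPKM. It measured 5.12, 7.0 and 2.16 FPKM in the pachytene RNP libraries and 28.4, 44.0 and 31.5 in the pachytene polysome libraries. In round spermatids the values were 6.65, 19.9 and 13.5 in RNPs and 23.9, 49.3 and 45.9 in polysomes. Elongating spermatids gave 3.48, 4.37 and 12.8 in RNPs and 26.7, 34.7 and 23.4 in polysomes. The fractions did not overlap in any of the 3 cell types. The averaged difference was 2.11 ± 0.31 (SE, log2; adjusted p = 4.6e-04, limma), and in pachytene spermatocytes alone it was 2.71 ± 0.53 (adjusted p = 0.0197). A piece of 6 exons at the 3′ end was assembled in 11 libraries and counts in the sum. Cnot6 was assembled in 2 pieces in every polysome library and in 1 piece in 6 libraries, all of RNPs. The sum thus counts more pieces in polysome libraries. In pachytene cells the median exon FPKM was 5.12, 7.0 and 2.16 in RNPs and 14.2, 20.6 and 14.6 in polysomes. On the length-weighted scale the averaged difference was 1.41 ± 0.31 (adjusted p = 0.0018, limma).

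Cnot2, a subunit of the NOT module, rose by 1.82 ± 0.27 in polysomes on average (adjusted p = 5.4e-04, limma). Its summed FPKM was 19.5, 13.5 and 7.47 in pachytene RNPs against 43.6, 32.7 and 37.3 in polysomes, and 15.4, 11.6 and 12.1 in round RNPs against 94.2, 35.9 and 46.4 in polysomes. Elongating RNPs had 10.2, 6.97 and 12.5 and elongating polysomes 24.6, 63.1 and 45.2. No RNP library reached the lowest polysome library of its cell type. In elongating spermatids alone Cnot2 was the only member that rose in polysomes, by 1.99 ± 0.47, with an adjusted p of 0.0497 just under the threshold. On the length-weighted scale that difference was 1.23 ± 0.37 and did not pass (adjusted p = 0.059).

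Cnot7, the DEDD-type nuclease that spermatogenesis needs, rose by 1.28 ± 0.27 on average (adjusted p = 0.0031, limma) and by 1.74 ± 0.47 in pachytene spermatocytes (adjusted p = 0.0413). It had 20.3, 16.0 and 8.18 FPKM in pachytene RNPs and 56.3, 75.2 and 27.4 in pachytene polysomes. Round spermatids had 26.8, 14.6 and 12 in RNPs and 44.1, 27.7 and 24.3 in polysomes, where the fractions overlapped and polysomes were higher in each pair with the same number. Elongating RNPs, at 7.44, 5.63 and 8.70, lay below elongating polysomes, at 20.8, 17.9 and 17. This gene was the most completely assembled of the 9, and its length-weighted difference of 1.25 ± 0.22 was close to the summed one.

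Cnot1 rose by 1.73 ± 0.47 on average (adjusted p = 0.0124, limma). Its length-weighted FPKM was 85.6, 98.2 and 18.9 in pachytene RNPs and 236, 169 and 219 in pachytene polysomes. In round spermatids it was 66.5, 68.1 and 44.2 in RNPs and 221, 103 and 262 in polysomes, and in elongating spermatids 41.4, 37.5 and 62.2 in RNPs and 150, 220 and 163 in polysomes. Each polysome library was above every RNP library of all 3 cell types. The length-weighted difference of 1.81 ± 0.31 (adjusted p = 4.0e-04) was the largest of the 9 genes on that scale.

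**Figure D2:**
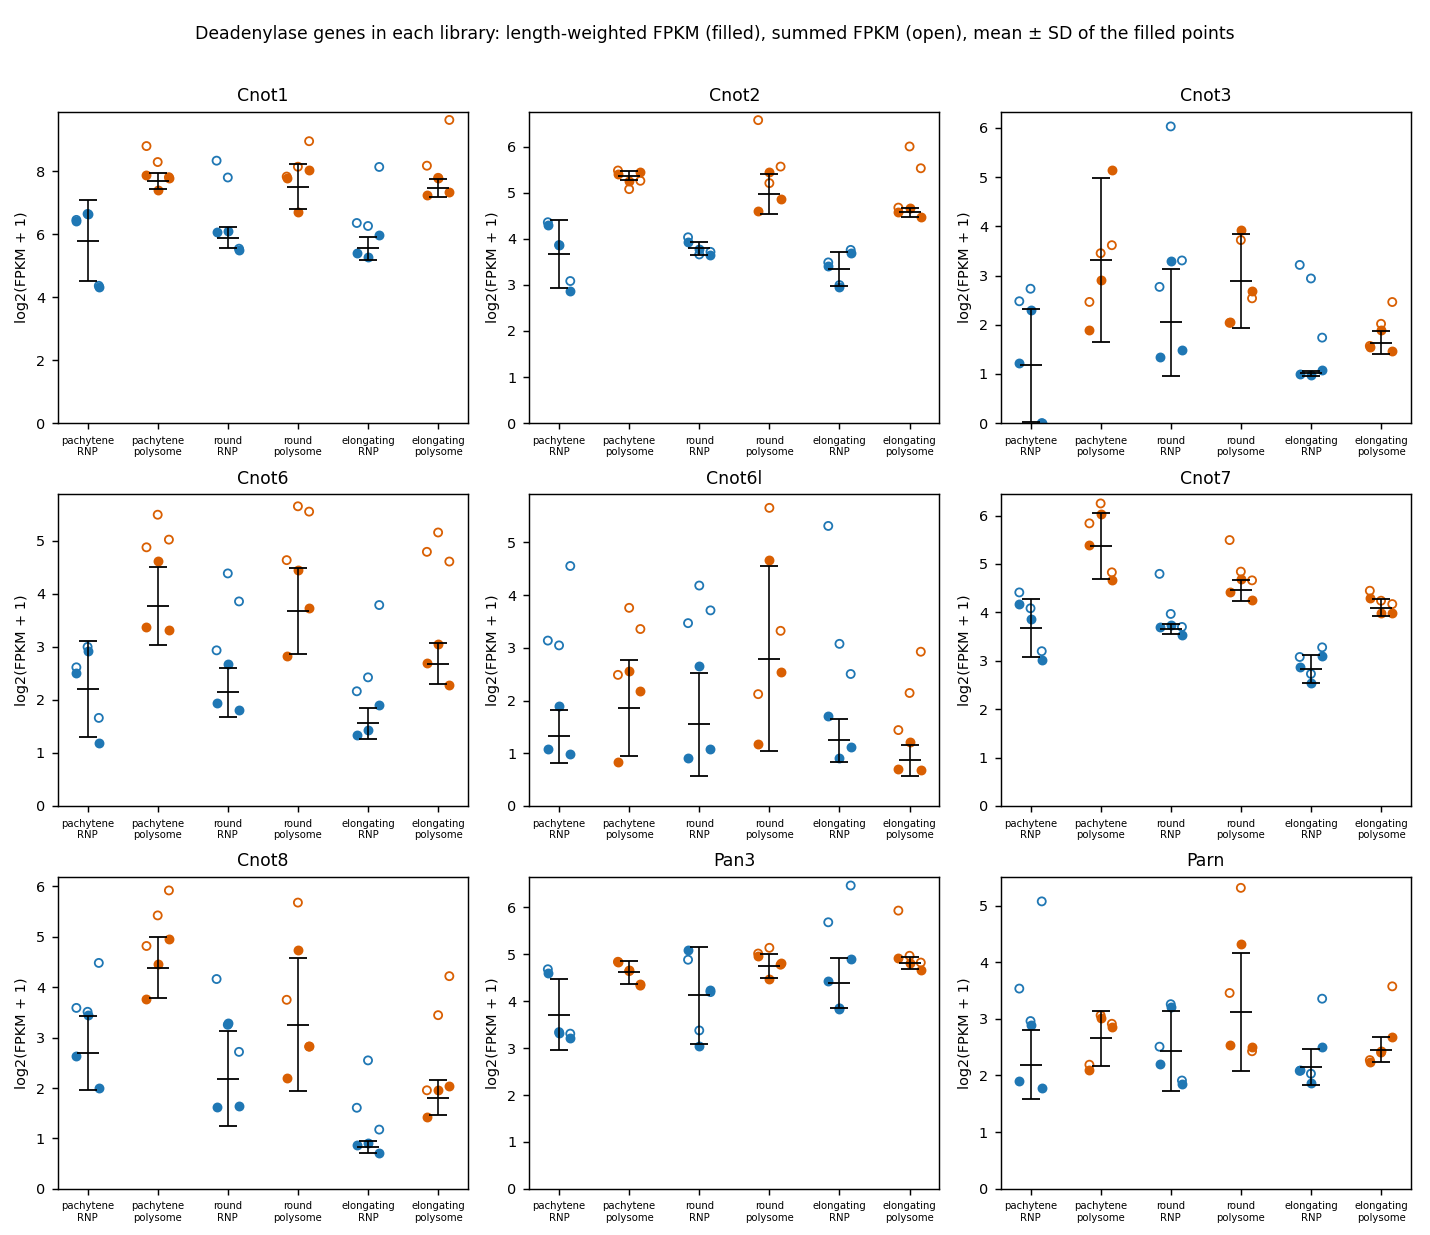
Level of each of the 9 genes in all 18 libraries, as log2(FPKM + 1), with RNP libraries in blue and polysome libraries in orange for each cell type on the x axis. Filled points are length-weighted FPKM with their mean ± SD (n = 3), open points are summed FPKM, and the open point far above the filled ones in round RNP of Cnot3 is the library with 64.4 summed and 8.87 length-weighted FPKM.

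The sum over pieces overstated single libraries of Cnot1. A piece of only 2 exons, 41 and 42 counted from the 5′ end (chr8:98252515-98253241), was assembled separately in 3 libraries, and it carried 17.6% of all the FPKM summed for this gene. In elongating polysome 3 the transcripts over exon 42 had 487 FPKM and those over exon 30 had 158. In round RNP 1 the values were 210 and 63.6, and in elongating RNP 3 they were 100 and 65.3. Over exon 30, in the body of the gene, each polysome library lay above every RNP library of its cell type, while round polysome 2 dropped to 59.9 FPKM over exons 41 to 43, below the 68.7 FPKM of round RNP 2 over the same exons.

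**Figure D3:**
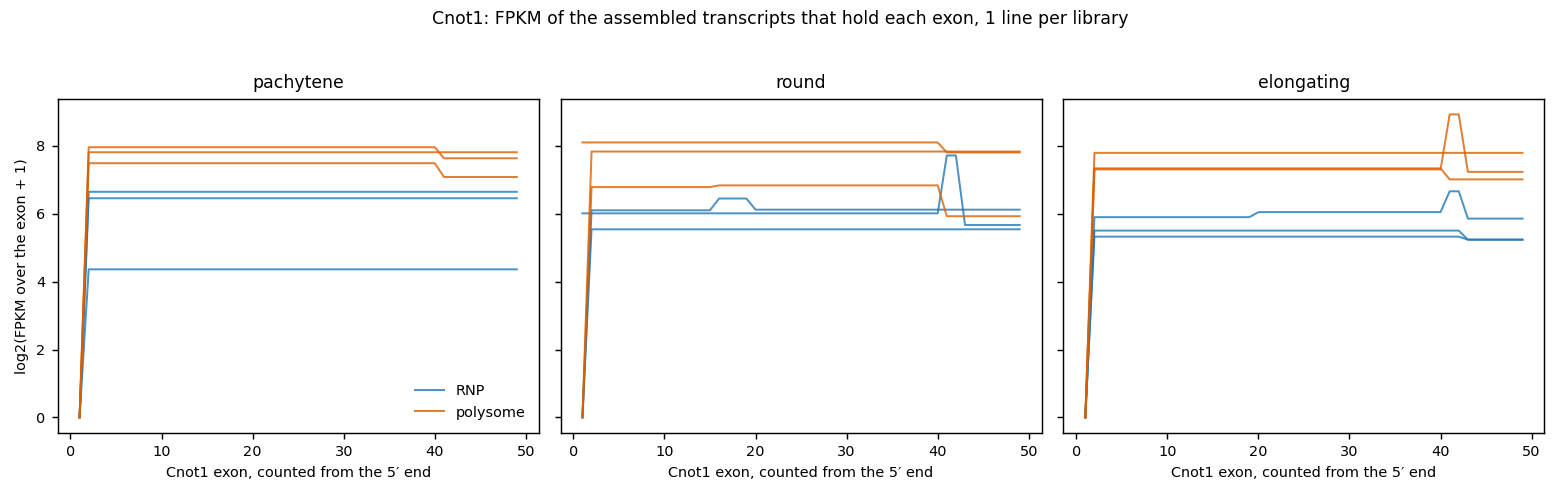
FPKM of all assembled transcripts that hold each exon of Cnot1, as log2(FPKM + 1), along the 49 exons from the 5′ end, with 1 line per library and 1 panel per cell type (RNP blue, polysome orange). The peaks over exons 41 and 42 in round RNP and in elongating libraries are the separate 2-exon pieces, and exon 1 is at 0 in all but 2 libraries.

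Cnot8, the other DEDD-type nuclease, rose by 1.22 ± 0.42 on average (adjusted p = 0.0353, limma; length-weighted 1.25 ± 0.36, adjusted p = 0.0087). In summed FPKM its fractions were separate in pachytene spermatocytes only. Without the 5 libraries with over 1000 FPKM of Sertoli markers, the summed difference was 0.69 ± 0.48 and no longer passed (adjusted p = 0.28), and the length-weighted one was 1.1 ± 0.23 and did (adjusted p = 0.0019).

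On the length-weighted scale 6 of the 9 genes rose on average, these 5 and Cnot3, where 57.9% of all genes were called. The remaining 4 genes did not pass in summed FPKM. Cnot3, the third subunit of the frame, had a difference of -0.15 ± 0.49 in summed FPKM and 1.20 ± 0.45 in length-weighted FPKM, where it rose (adjusted p = 0.0319) and kept its call in 11 of 18 fits that left out a library. Its values were low, from 0 to 64.4 summed FPKM, and the 2 highest are unsafe. The 64.4 in round RNP 2 is mostly a piece of 2 exons with 58.6 FPKM, and the highest length-weighted value, 34.4 in pachytene polysome 3, comes from a transcript of 31 exons that runs beyond Cnot3. Pan3 (0.52 ± 0.35, adjusted p = 0.26) and Parn (0.10 ± 0.42, adjusted p = 0.87, limma) had small differences between fractions in summed FPKM. The sum for Parn was 32.7 FPKM in pachytene RNP 3, where 5 of its 24 exons were covered and the highest exon value was 30.1. On the length-weighted scale the Parn difference ran from 0.29 to 0.62 in 18 fits that left out a library, and 0 of them called it. Cnot6l, the paralog of Cnot6, was the only nuclease of CCR4-NOT whose summed value was lower in polysomes, by -0.64 ± 0.48 (adjusted p = 0.31, limma). Its sum was 38.7 FPKM in elongating RNP 1 and 22.5 in pachytene RNP 3, where separate pieces raised it and the median exon FPKM was 4.14 and 1.62. On the length-weighted scale Cnot6l was higher in polysomes by 0.47 ± 0.42 (adjusted p = 0.33, limma).

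Within cell types fewer calls were made. In pachytene spermatocytes 2 of the 9 genes rose in summed FPKM (Cnot6 and Cnot7), where 6.49% of all genes were called. The length-weighted values gave 6 (Cnot1, Cnot2, Cnot3, Cnot6, Cnot7 and Cnot8), where 34.2% were called. Those of Cnot3 and Cnot8 held in only 6 of 18 fits that left out a library, with adjusted p values up to 0.223 and 0.198 without pachytene RNP 3, and without pachytene polysome 3 the Cnot3 difference was 1.23 (adjusted p = 0.207). No member was called in round spermatids (0.222% of all genes summed, 0.0699% length-weighted, limma), and 2 members in summed and 3 in length-weighted values had an unadjusted p under 0.05. In elongating spermatids 1 of 9 was called in summed FPKM (1.21% of genes) and 0 of 9 in length-weighted FPKM (4.6%, limma), where 3 had an unadjusted p under 0.05. Without the 5 libraries rich in Sertoli markers, the numbers called by limma in pachytene, round and elongating cells and on average were 0, 0, 2 and 4 in summed FPKM, where 0.457%, 0.592%, 5.78% and 32.9% of all genes were called and 5, 2, 3 and 5 members had an unadjusted p under 0.05. In length-weighted FPKM they were 0, 0, 5 and 6, where 0.526%, 0.245%, 37.9% and 73.6% of genes were called and 6, 4, 5 and 6 members had an unadjusted p under 0.05. Leaving these libraries out kept 1 to 2 libraries in 4 groups. Polysome libraries were all above RNP libraries for 5, 2 and 3 members in pachytene, round and elongating cells in summed FPKM, where 29.9%, 14.5% and 37.4% of all genes had this separation, and for 5, 4 and 6 in length-weighted FPKM (43.5%, 21.4% and 64.4%).

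These differences moved with the scaling of the libraries. FPKM is a share of each library, and polysome libraries held higher values for most genes, with a median difference of 0.77 over all genes tested. Median-ratio scaling, which sets the median gene of each library to the same level, moved this median to 0.11 in summed FPKM. After it, only Cnot6 passed on average (1.24 ± 0.28, adjusted p = 0.0373, limma, 1.59% of genes called). The sum for Cnot6 counts 2 pieces in every polysome library and 1 piece in 6 RNP libraries. After the same scaling of length-weighted values the averaged differences were 0.59 for Cnot1, 0.41 for Cnot6, 0.29 for Cnot8, 0.20 for Cnot2 and 0.10 for Cnot7, with a median of 0.20 over the 9 members and 0.09 over all genes, and no member passed (limma, 1.51% of genes), while 2 had an unadjusted p under 0.05. Pan3 and Parn were then at -0.52 each. In summed FPKM after this scaling Cnot2 was at 0.92 ± 0.24 (adjusted p = 0.0689), Cnot1 at 0.78 ± 0.42 (adjusted p = 0.362), Cnot7 at 0.39 ± 0.23 and Cnot8 at 0.37 ± 0.43, all higher in polysomes than the median gene and none past the threshold.

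A ratio of 2 members in the same library moves less with its scaling than a level does, but it still moves for genes near 1 FPKM because 1 is added to both values, and 3 ratios were compared. For the paralogs Cnot6 and Cnot6l the log2 ratio of (FPKM + 1) was higher in polysomes by 2.75 in summed FPKM (exact permutation test within cell types, two-sided, p = 0.00075, adjusted p = 0.00675 over 9 ratio tests). The ratio itself was 0.70, 0.97 and 0.14 in pachytene RNPs and 5.25, 3.33 and 3.17 in pachytene polysomes. It was 0.69, 1.15 and 1.11 in round RNPs and 5.72, 0.998 and 4.69 in round polysomes. In elongating cells it was 0.11, 0.64 and 2.44 in RNPs and 10.2, 8.08 and 3.21 in polysomes. The 0.14 in pachytene RNP 3 and the 0.11 in elongating RNP 1 rest on Cnot6l sums of 22.5 and 38.7 FPKM. The median exon FPKM of Cnot6l there was 1.62 and 4.14. In pachytene and elongating cells every polysome library was above every RNP library, and in round cells polysome 2, a library rich in Sertoli markers, was the exception. With median exon values the difference was 1.06 (exact permutation test, p = 0.00575, adjusted p = 0.0383), and with length-weighted values it was 0.94 (exact permutation test, p = 0.0135) and missed the threshold after adjustment (adjusted p = 0.0608). After median-ratio scaling the differences were 2.73 in summed FPKM (exact permutation test, adjusted p = 0.00675), 1.01 in median exon values (exact permutation test, adjusted p = 0.063) and 0.72 in length-weighted values (exact permutation test, adjusted p = 0.152). The direction was the same on these 3 measures, while the size and, outside summed FPKM, the call depended on how the pieces were counted and scaled. When only transcripts with a whole annotated intron chain were kept, the difference turned to -1.44 (exact permutation test, adjusted p = 0.585). This left Cnot6 in 4 libraries, all of RNPs, and at 0 in every polysome library. The sign can therefore not be read as a difference in level.

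**Figure D4:**
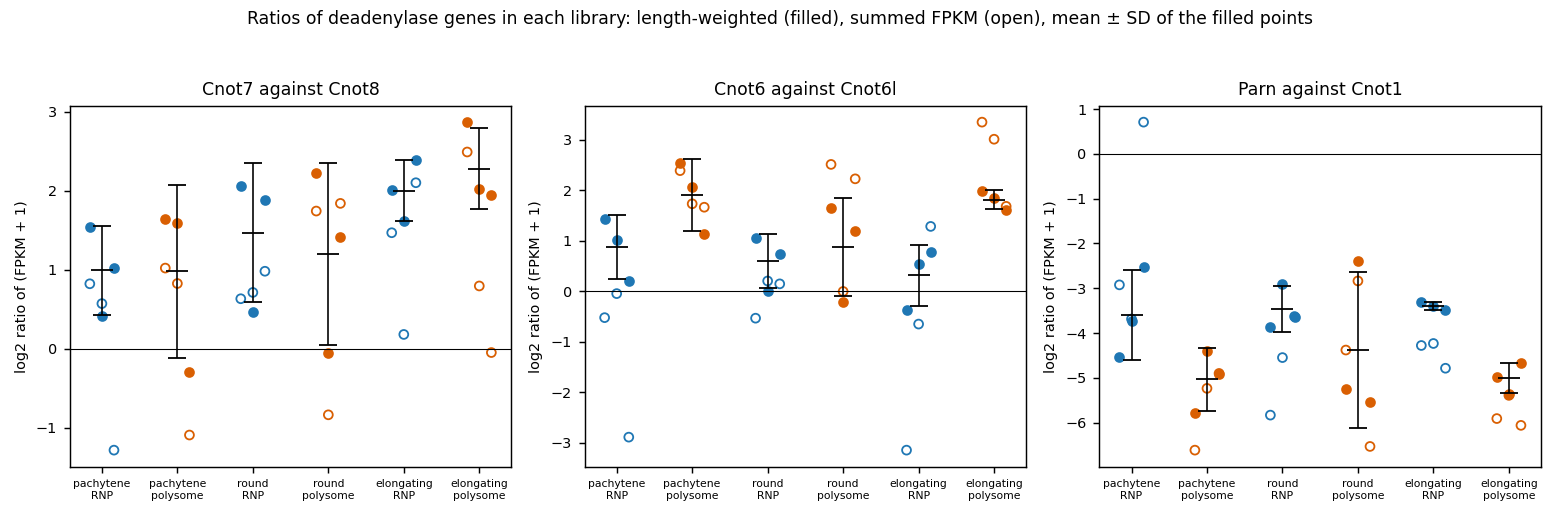
Log2 ratio of (FPKM + 1) for Cnot7 against Cnot8, Cnot6 against Cnot6l and Parn against Cnot1 in each library, grouped by cell type and fraction on the x axis (RNP blue, polysome orange). Filled points are length-weighted values with mean ± SD (n = 3) and open points summed FPKM; the ratio of Cnot6 to Cnot6l lies higher and that of Parn to Cnot1 lower in polysomes, with round polysome 2 apart from the other 2 libraries of its group.

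Parn, which acts alone rather than in CCR4-NOT, was set against Cnot1, the gene with the largest length-weighted difference between fractions. When each library was left out in turn, that averaged difference was 0.29 to 0.62 for Parn and 1.56 to 1.95 for Cnot1. A lower ratio thus does not mean that Parn itself was lower in polysomes. Its tests use the same libraries as the Cnot1 difference and are not separate support. The log2 ratio was lower in polysomes by -1.63 in summed FPKM (exact permutation test, p = 0.0305, adjusted p = 0.137), by -1.32 in length-weighted FPKM (exact permutation test, p = 0.008, adjusted p = 0.0608) and by -1.21 in median exon values (exact permutation test, p = 0.0085, adjusted p = 0.0383). In elongating spermatids the median exon ratios were 0.0932, 0.102 and 0.0940 in RNPs and 0.0298, 0.0238 and 0.0297 in polysomes, with a wide gap between the groups. In pachytene cells they were 0.0383 and 0.0776 in RNP 1 and 2 and 0.0155, 0.0464 and 0.0334 in polysomes, which overlapped. In pachytene RNP 3 only 5 of the 24 exons of Parn were covered and its median exon FPKM was 0, so that the ratio there is only the added 1 over the value of Cnot1. Without that library the difference was -1.23 and did not pass (exact permutation test, adjusted p = 0.0574), and after median-ratio scaling of all libraries it was -0.94 (exact permutation test, adjusted p = 0.18). Round cells gave 0.0590, 0.137 and 0.0807 in RNPs and 0.0251, 0.181 and 0.0196 in polysomes, where again library 2 stood apart, and without it in both fractions the length-weighted difference was -1.56 (exact permutation test, adjusted p = 0.0113).

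For the DEDD-type paralogs Cnot7 and Cnot8 no difference between fractions was detected. Their log2 ratio differed by 0.06 between polysomes and RNPs (exact permutation test, p = 0.90), and it ran from -0.17 to 0.35 when each library was left out in turn. None of the 6 tests of a ratio across cell types passed in summed FPKM. In RNPs the ratio of Cnot7 to Cnot8 was 0.411 to 1.77 in pachytene cells and 1.13 to 4.30 in elongating cells in summed FPKM, which overlapped. On the length-weighted scale it did not overlap, with log2 ratios of 0.41 to 1.54 against 1.61 to 2.39 in RNPs and -0.29 to 1.64 against 1.94 to 2.87 in polysomes, but the test over the 3 cell types did not pass in either fraction (exact permutation test, adjusted p = 0.482 in both).

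The second question was how the levels change from pachytene spermatocytes to elongating spermatids. In summed FPKM no member was called in any of the 6 comparisons between cell types (limma), with 2 members at an unadjusted p under 0.05 in 4 of them and 0 in the other two. Between elongating and pachytene cells 5.95% of all genes were called in polysomes and 0.562% in RNPs, between round and pachytene cells 0.173% and 0.0%, and between elongating and round cells 0.513% and 0.0832%. None of the 3 tests of a change in the difference between fractions called a member either, with 2 members at an unadjusted p under 0.05 between round and pachytene cells and 0 in the others (limma, 0.00693%, 0.00693% and 0.0277% of genes called).

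Cnot8 was the member that changed most. Its length-weighted FPKM in polysomes was 12.5, 20.9 and 30.2 in pachytene spermatocytes, 3.57, 25.7 and 6.17 in round spermatids and 1.68, 2.89 and 3.14 in elongating spermatids. In RNPs it was 5.19, 9.94 and 2.99, then 2.09, 8.75 and 2.14, and last 0.82, 0.89 and 0.63. The 3 elongating libraries lay below all pachytene and round libraries in both fractions. How many of all genes had such a separation between cell types was not counted. In polysomes it fell by 2.58 ± 0.62 from pachytene to elongating cells in length-weighted FPKM (adjusted p = 0.0154, limma, with 13.9% of genes called and a median of -0.51 over all genes). The summed difference was -2.18 ± 0.72 and did not pass (adjusted p = 0.081). After median-ratio scaling of length-weighted values it fell by 2.08 ± 0.60 in polysomes (adjusted p = 0.0421, 10% of genes called) and by 2.08 ± 0.60 in RNPs (adjusted p = 0.0446, 8.64%).

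In pachytene and round cells, in both fractions, the length-weighted Cnot8 values had the same order as the Sertoli marker sums of the libraries. In RNPs these sums were 330, 1626 and 85.5 FPKM in pachytene cells and 53.3, 1286 and 95.9 in round cells. In elongating cells, where the sums were low, the order did not hold. In pachytene polysomes Cnot8 took the values 12.5, 20.9 and 30.2 where the 14 Sertoli markers summed to 216, 1096 and 1483 FPKM, and in round polysomes 3.57, 25.7 and 6.17 where they summed to 105, 2538 and 150. Across fractions, pachytene polysome 1 had 12.5 FPKM of Cnot8 with a marker sum of 216, and pachytene RNP 2 had 9.94 with a sum of 1626. The 7 Leydig cell markers summed to 158, 154 and 249 FPKM in pachytene polysomes and to 20.4, 30.5 and 11.7 in elongating polysomes, and the 7 spermatogonia markers were highest in round polysome 2, at 552. The part of these cells in the Cnot8 values was not tested. Over the 18 libraries the gene most like Cnot8 in length-weighted log2 FPKM was Gas6 (r = 0.987, a description over libraries that share these markers). Without the 5 libraries rich in Sertoli markers the call was kept, with a fall by 1.95 ± 0.45 in polysomes (adjusted p = 0.0316, 4.52% of genes called) and by 1.48 ± 0.35 in RNPs (adjusted p = 0.0242, 8.43%, limma, length-weighted), with 1 pachytene polysome library left, which is assumed to vary like the other groups and which has the second highest Leydig marker sum. Leaving out single libraries moved the polysome difference between -2.90 and -2.29, and it lost its call without elongating polysome 1 (adjusted p = 0.069), pachytene polysome 2 (adjusted p = 0.063) or pachytene polysome 3 (adjusted p = 0.068).

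Cnot7 was the other member that fell on the length-weighted scale. Its polysome values were 41.2, 64.7 and 24.5 FPKM in pachytene cells, 20.3, 24.7 and 18.2 in round cells and 18.6, 14.9 and 14.9 in elongating cells. Elongating libraries lay below pachytene ones without overlap, and the share of all genes with such a separation was not counted. On this scale 13.9% of all genes were called between these 2 groups. The call on this scale was kept in 11 of 18 fits that left out a library, where the difference ran from -1.63 to -0.94, the latter without pachytene polysome 2 (adjusted p = 0.186). The difference between these 2 cell types was -1.28 ± 0.38 (adjusted p = 0.0374, limma), -1.35 ± 0.47 in summed FPKM (adjusted p = 0.092) and -0.87 ± 0.29 after median-ratio scaling of length-weighted values (adjusted p = 0.071). Without the 5 libraries rich in Sertoli markers it was -1.31 ± 0.49 and did not pass (adjusted p = 0.135).

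The other 7 genes did not pass between cell types on the summed or the length-weighted scale. On the latter Cnot7 and Cnot8 in polysomes were the only calls, and limma called no member in the RNPs, where 0.0% (round against pachytene), 0.0466% (elongating against round) and 1.58% (elongating against pachytene) of genes were called and 0, 2 and 2 members had an unadjusted p under 0.05. In polysomes the first 2 of these comparisons had 0.543% and 0.862% of genes called, with 1 and 2 members at an unadjusted p under 0.05. Pan3 had length-weighted means of 13.5, 19.5 and 20.8 FPKM in the RNPs and 23.8, 26.3 and 27.1 in the polysomes of pachytene, round and elongating cells. Parn ran from 3.54 ± 1.02 in elongating RNPs to 9.5 ± 8.22 in round polysomes (SD, n = 3). Cnot1 in polysomes was 208 ± 34.9, 196 ± 82.3 and 177 ± 37.0, a decline smaller than the spread between libraries. Cnot6l had its highest value in round polysome 2, 24.4 FPKM, where the other 2 libraries of the group had 1.27 and 4.81.

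The third readout was the 3′ end of the assembled transcripts, measured in bases after the annotated stop codon, as a description with no test. Pan3 transcripts ended 2102 to 2127 bases after the stop codon in 17 libraries and at 1622 in round RNP 2, and those of Parn at 881 to 888 in 16 libraries, at 812 in pachytene RNP 1 and at 194 in pachytene RNP 3. The ends of Cnot7 lay at 1426 to 1607, and those of Cnot1 at 775 to 874 in 12 libraries and at 944 to 968 in 6. Wider ranges were those of Cnot6, Cnot6l and Cnot8. Cnot6 transcripts ended 795 to 803 bases after the stop codon in the 3 elongating RNP libraries, at 792 in round polysome 1 and at 667 in round RNP 3, at 1678 to 1688 in 6 libraries of other groups, and from 3683 to 4106 in pachytene RNP 1 and 2, pachytene polysome 2 and round polysome 2. Assembled exons, separate fragments included, reached at least 3661 bases in 18 of 18 libraries. They covered 2091, 1408 and 3326 bases of this 3′ UTR in the elongating RNP libraries, 2660 in pachytene RNP 3 and 3207 to 4106 in the other 14.

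Cnot8 showed a related pattern with less coverage behind it. In pachytene cells the FPKM-weighted end lay 994 to 1237 bases after the stop codon in 5 of 6 libraries, and in RNP 3 it lay at 297. In elongating polysomes it lay at 223, 249 and 249, and in elongating RNPs at 109 and 236 with no spliced end in the third library. Fragments reached 945, 1043 and 1000 bases in the elongating polysome libraries, and 109, 236 and 1004 in the elongating RNP libraries. Cnot6l, whose annotated 3′ UTR is the longest of the set, was covered to 6840 to 6910 bases in the 5 libraries rich in Sertoli markers and in round polysome 3, and to 1295 to 5617 bases in the other 12. The part of other cell types in these long ends was not tested.

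**Figure D5:**
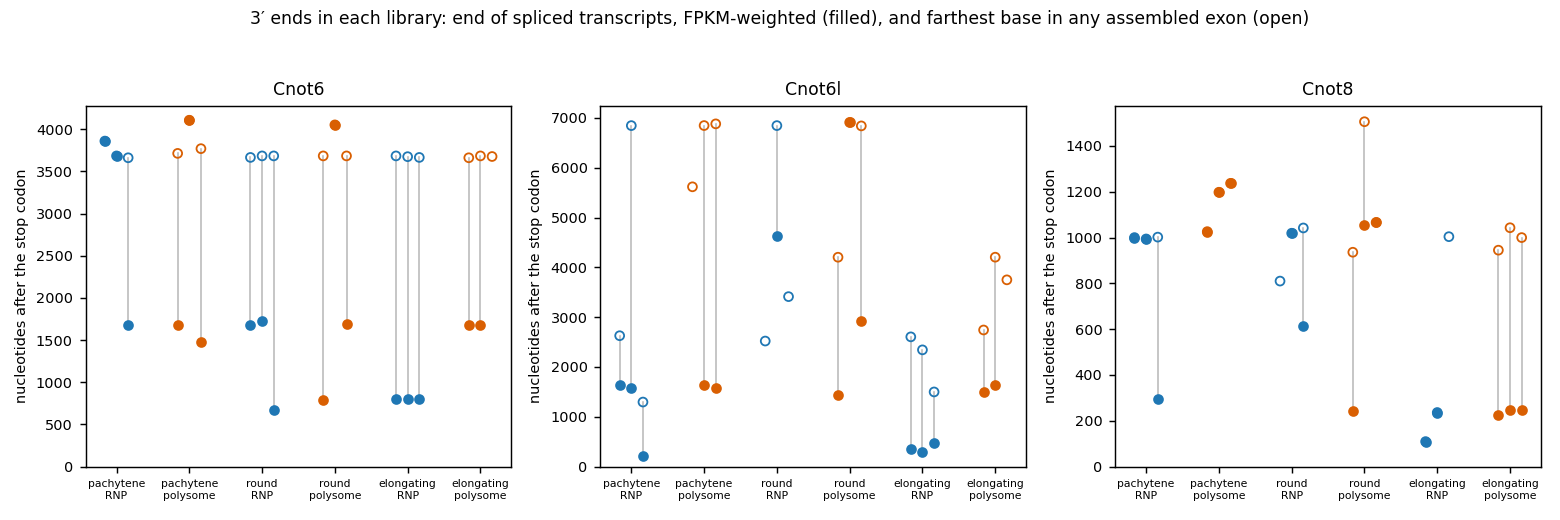
Bases after the annotated stop codon for Cnot6, Cnot6l and Cnot8 in each library, grouped by cell type and fraction on the x axis (RNP blue, polysome orange). Filled points are the FPKM-weighted end of spliced transcripts, open points the farthest base covered by any assembled exon, and the grey lines join them; in elongating libraries the filled points of Cnot6 RNP and Cnot8 lie low while most open points stay near those of other groups.

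Where at least 3 libraries had ends within 30 bases of the next, the last 30 bases before each distinct end were searched on the transcript's strand for the poly(A) signals AATAAA and ATTAAA. The first was found at all 8 ends of Cnot2 (1028 to 1039 bases after the stop codon), all 11 of Cnot7 (1426 to 1448), all 5 of Pan3 (2102 to 2127) and all 5 of the Cnot6 group at 1678 to 1688, and the second at all 6 ends of Parn (881 to 888). AATAAA stood at 2 of 4 ends of Cnot8 at 994 to 1026 and ATTAAA at 3 of 10 ends of Cnot1 at 775 to 874. Neither was in these windows at the 3 ends of Cnot6 at 792 to 803, the 4 of Cnot8 at 223 to 249, the 2 of Cnot6l or the 5 of Cnot1 at 944 to 968. Of 55386 annotated coding transcripts, 45.6% held one of the 2 hexamers in their last 30 bases, and 5.94% in the 30 bases before those.

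Few members were assembled whole. A transcript with a complete annotated intron chain was present in 15 of 18 libraries for Cnot7, in 11 for Cnot2, in 10 for Parn and in 8 for Pan3. Cnot3 and Cnot6l had one in 6 libraries each, Cnot8 in 5, and Cnot1 and Cnot6 in 4, those of Cnot6 all of RNPs. The libraries without one for Cnot7 were all of polysomes. A gene without such a transcript counts as 0 where only these are kept. Such transcripts held 66.5% of the FPKM of Cnot7 and 3.20% of that of Cnot6. With these transcripts alone the averaged difference between fractions turned to -0.83 for Cnot1, -0.18 for Cnot2, -0.81 for Cnot6, -0.30 for Cnot7 and -0.35 for Cnot8, and limma called no member, with 1 at an unadjusted p under 0.05. The leading form of Cnot7 was Cnot7-001, with 61.3% of its FPKM in 14 libraries, Parn had 1 annotated chain with 25.4% in 10, and Pan3 had 1 with 19.9% in 8. The chains of Cnot2-002 and Cnot2-001 held 16.4% and 12% of the FPKM of Cnot2.

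Over the 18 libraries, length-weighted log2 values of Cnot2 correlated with those of Cnot1 (r = 0.873), Cnot6 (r = 0.888) and Cnot7 (r = 0.896), and those of Cnot6l with Parn (r = 0.862), while Pan3 ran from r = -0.185 with Cnot6l to r = 0.562 with Cnot1. These are descriptions over libraries that share the difference between fractions. The gene most like each member in summed log2 FPKM, out of 9851 searched, was Cacna2d1 for Cnot1 (r = 0.886), Cdc37 for Cnot2 (r = 0.955), Cwc25 for Cnot3 (r = 0.929), BC004004 for Cnot6 (r = 0.952), Polrmt for Cnot6l (r = 0.851), Zdhhc7 for Cnot7 (r = 0.951), Gclc for Cnot8 (r = 0.893), Cdc27 for Pan3 (r = 0.859) and Vps37b for Parn (r = 0.795).

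The partners of these genes were measured in the same comparisons. Of 7 further genes of the deadenylase families, 3 were higher in polysomes on average in summed FPKM, where 30.9% of all genes were called. They were Angel1 (2.09 ± 0.34), Angel2 (1.02 ± 0.24) and Toe1 (1.30 ± 0.25). In length-weighted FPKM 7 were higher, where 57.9% of all genes were called. Whether each of the 7 removes poly(A) was not examined. Of the 5 other CCR4-NOT subunits 4 were higher, Cnot10 (1.43 ± 0.34), Cnot4 (0.94 ± 0.25), D1Bwg0212e (0.80 ± 0.26) and Tnks1bp1 (1.25 ± 0.46). Tnks1bp1 was low, with a length-weighted mean of 1.23 FPKM over the libraries and 0.04 in elongating RNPs. Of 24 recruiters of deadenylases 6 were higher, such as Pum2, a repressor that binds 3′ UTRs (1.72 ± 0.35), and Btg3 (1.73 ± 0.48). Decapping and 5′-to-3′ decay had 7 of 17 genes higher and poly(A) binding and synthesis 4 of 15, such as the decapping activator Ddx6 (1.73 ± 0.59) and Paip2, which binds poly(A)-binding protein (1.68 ± 0.26). These counts rest on all 18 libraries, the 5 rich in Sertoli markers included, and are to be read against the 30.9% called among all genes. No gene of these lists was lower, and after median-ratio scaling of summed values none of them was called.

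Between pachytene and elongating polysomes the partners went both ways in summed FPKM, where 5.95% of all genes were called. Angel2, an EEP-family protein like Cnot6, fell by 1.55 ± 0.42 (adjusted p = 0.0417, limma), and the decay factors Lsm3 and Lsm7, parts of the Lsm ring that binds deadenylated ends, fell by 2.13 ± 0.40 (adjusted p = 0.0103) and 2.03 ± 0.50 (adjusted p = 0.0298). Recruiters rose in 3 cases, which were Samd4b, a Smaug protein (1.86 ± 0.45, adjusted p = 0.0264), Cpeb3, a cytoplasmic polyadenylation element binding protein (3.26 ± 0.79, adjusted p = 0.0281), and Tnrc6b, a GW182 protein that links Argonaute to CCR4-NOT (2.04 ± 0.54, adjusted p = 0.0373). Samd4b, Cpeb3, Lsm3 and Lsm7 kept their calls in length-weighted values and with median-ratio scaling of either measure. Angel2 lost its call with that scaling (adjusted p = 0.090 summed), and Tnrc6b did in length-weighted values (0.95 ± 0.44, adjusted p = 0.14). The other CCR4-NOT subunits and the poly(A) list had 0 calls in summed FPKM in this comparison. All these calls include pachytene polysome 2 and 3, which are rich in Sertoli markers, and are not given without them.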

How the data were processed

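Polysome and RNP fractions were analysed in 18 libraries, 3 for each of 6 groups named by the labels. Stranded total RNA reads were mapped by the authors with TopHat2 (genome build mm9), Cufflinks then assembled the transcripts of each library (exact versions are not given in the sources used here), and the deposited values are FPKM and coverage per assembled transcript. Transcripts were matched to GENCODE vM1 genes by strand and a shared splice junction, and FPKM was summed per gene. Genes with an FPKM of 1 or more in 3 or more libraries were fitted on log2(FPKM + 1) in limma 3.58.1 (R 4.3.3, trend, 6 groups, 13 contrasts) with Benjamini-Hochberg adjustment over 14425 genes. Ratios of 2 members were compared by exact permutation tests in Python 3.11.15, adjusted over 9. The fit and the ratio test were tested on simulated data. All 9 members are named, up to 4 called genes per list of partners by mean FPKM, and the 1 gene most like each member. The members and lists were chosen with earlier results of these data known. Length-weighted and median exon values, the combination with median-ratio scaling, the scaled ratios, and the fits without round libraries 2, Sertoli-rich libraries or the library with Parn at 0 were added after seeing the data. The depth in reads is unknown, so no interval from counting is given.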

Additional observations from a re-analysis of the deposited data

How the results depend on the processing

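Libraries with the same replicate number deviated together (every r over 0.1) in 2 of 9 pairs of groups, which are the round fractions and the pachytene and round RNPs, and the lowest r elsewhere was -0.125. The replicate block gave 3 members called in pachytene cells (2 without it), 2 in elongating cells (1 without it), 5 on average (5 without it), 1 in polysomes between elongating and pachytene cells (0 without it) and 0 in round cells, where the numbers pair the libraries (Cnot7 0.85 ± 0.41, adjusted p = 0.274, limma). In pachytene cells, where 2 members were called, 0 were called with median-ratio scaling, quantile normalization, only the libraries compared, whole intron chains, length-weighted values with median-ratio scaling, and without the Sertoli-rich libraries on either measure, 4 without both round libraries numbered 2, and 6 with length-weighted values, with all libraries or without the round ones numbered 2. In elongating cells, where 1 was called, 0 were called with an FPKM of 5 or more, median-ratio scaling, quantile normalization, whole chains, single-exon fragments added, and length-weighted values with or without median-ratio scaling, 3 with only the libraries compared and with length-weighted values without the round libraries, 2 without the round or the Sertoli-rich libraries, and 5 with length-weighted values without the latter. On average, where 5 were called, 1 was called with median-ratio scaling and 0 with quantile normalization, whole chains, and length-weighted values with median-ratio scaling.

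Between elongating and pachytene cells 0 members were called. In polysomes 1 was called with only the libraries compared, without the round libraries, with length-weighted values and median-ratio scaling, and with length-weighted values without the Sertoli-rich libraries, and 2 with length-weighted values, with or without the round libraries. In RNPs 1 was called with length-weighted values and median-ratio scaling and without the round or Sertoli-rich libraries, and in polysomes between round and pachytene cells 1 without the round libraries. Leaving out each library gave 0 to 3 calls in pachytene cells, 0 to 2 in elongating cells, 4 to 5 on average and 0 to 1 in polysomes between elongating and pachytene cells, and 0 in the other comparisons. The ratio of Cnot6 to Cnot6l differed by 2.36 to 3.10 and that of Parn to Cnot1 by -1.92 to -1.18. With whole chains the first was -1.44, with length-weighted values 0.94 and 0.72 after median-ratio scaling, with median exon values 1.01 after that scaling and 1.04 without pachytene RNP 3, and the second was -1.21 with median exon values and -1.56 with length-weighted values without the round libraries. Whole chains also turned Cnot6 (-1.60) and Cnot7 (-0.21) in pachytene cells, Cnot2 in elongating cells (-1.71), and the averages of Cnot1 (-0.83), Cnot2 (-0.18), Cnot6 (-0.81), Cnot7 (-0.30) and Cnot8 (-0.35). Libraries without a whole chain count as 0 here, which holds for Cnot6 in every polysome library. For Cnot7 it holds for pachytene polysome 1 and round polysome 1 and 3, with 56.3, 44.1 and 24.3 summed FPKM. The part of these zeros in the turned signs was not tested.

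Over all genes the averaged comparison had 4405 higher and 53 lower, 130 and 97 with median-ratio scaling, 7414 and 41 with length-weighted values, and 77 and 113 with both. Between elongating and pachytene polysomes the numbers were 450 and 409, 380 and 173, 652 and 1144, and 795 and 470. Depth in reads is unknown, and low members such as Cnot3 rest on few assembled transcripts.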
